A study of Sus scrofa with 32 samples.

Results

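Trimethylation of lysine 4 of histone H3 (H3K4me3) was listed at 19622 merged regions of the pig genome in muscle satellite cells, and 1585 of them lay away from the ends of every protein-coding gene yet carried a peak in all 8 H3K4me3 peak lists. These 1585 constant distal regions are described here. They were chosen by merging the H3K4me3 peaks of the 8 libraries wherever they overlapped by at least 1 bp. A merged region was kept when it was under 5 kb wide, lay over 2.5 kb from both ends of every protein-coding gene on a placed chromosome of build Sscrofa11.1, and had a peak in all 8 lists. Because H3K4me3 peaks chose the regions, their H3K4me3 values are given as a description with no test, and tests are kept to H3K27ac and H3K27me3, which the choice did not use. Of the merged regions, 11298 had a peak in all 8 lists and 10705 of these were under 5 kb wide and on a placed chromosome. The other 9120 lay within 2.5 kb of a gene end and are called constant gene-end regions below. A further 4132 distal regions under 5 kb wide had a peak in 1 to 7 lists and are called inconstant distal regions.

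The libraries were made with CUT&Tag, in which an antibody bound to a histone mark guides a transposase that tags the DNA beside it, in pig cells labelled as muscle satellite cells, from which skeletal muscle regrows. For each of 3 marks, 4 conditions were profiled with 2 libraries each. Cells labelled CBP were compared with cells labelled WT, at 60 h and at 0 h of differentiation. Per the labels, the treatment was SGC-CBP30 at a dose of 5 (unit written as uM/ml) for 48 h in the proliferation phase and 60 h in the differentiation phase. SGC-CBP30 inhibits the acetyl-lysine-binding bromodomains of CBP and p300, both acetyltransferases. That treatment text is the same on all 32 samples, WT included, so reading CBP as inhibitor-treated and WT as untreated rests on the group names alone. No allele is named for either group. The growth protocol and the cell line field name C3H cells, and the field for treatment reads proliferation at 60 h as at 0 h, so the times are those of the titles. Nothing says that the 2 libraries of a group came from separate cultures, so every spread and p-value measures the difference between libraries, which may be technical.

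H3K4me3 is laid down at active and poised promoters, close to the site where transcription starts. H3K27ac marks active promoters and active enhancers and is written largely by CBP and p300, while H3K27me3 is written by Polycomb repressive complex 2 over silenced developmental genes. Enhancers usually carry H3K4me1 with little H3K4me3, so a strong H3K4me3 peak away from annotated genes is commonly examined as a promoter that the annotation lacks, a promoter inside a gene, a promoter of a non-coding gene, or a strong enhancer. Peak lists alone do not separate these.

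The deposited lists held 14898 to 17364 H3K4me3 peaks, 8969 to 23437 H3K27ac peaks and 1338 to 19317 H3K27me3 peaks per library. The sequencing depth of the libraries is unknown here, and no value below carries a counting interval. The values used are base pairs (bp) under peaks inside a region, percentages of regions, and ranks within a list. All 6 satellite cell markers, such as PAX7 and MYF5, had H3K4me3 within 1 kb of a gene end in at least 1 library, with a summed length of 5.93 to 13.0 kb per library, although MYOD1, the master regulator of the muscle lineage, had 0 bp in both CBP libraries at 0 h. All 5 endothelial and all 3 Schwann cell markers in the gene table were at 0 in all 8 libraries. Of the other marker lists, 5 of 6 fibroblast genes (2.85 to 5.25 kb), 2 of 5 blood genes (CD68 and SPI1, 1.82 to 3.55 kb) and 2 of 4 adipocyte genes (1.02 to 2.16 kb) had some H3K4me3. In bulk libraries, fewer cells that carry a mark and less mark per cell cannot be told apart.

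The constant distal regions were shorter and weaker in H3K4me3 than the gene-end regions, and far stronger than the inconstant distal ones. Their median width was 1806 bp (quartiles 1272 and 2595 bp), against 2199 bp in constant gene-end and 536 bp in inconstant distal regions. Strength was compared within each list by the percentile rank of the deposited -log10 p, with 100 for the strongest peak, and averaged over the 8 lists. The median rank was 48.0 in constant distal regions, 67.7 in constant gene-end regions and 11.12 in inconstant distal regions. A rank at or above that of the median gene-end region was held by 385 of the 1585 (24.3%), a rank of at least 90 by 43, and a rank under 20 by 78. The summit stayed in place across the libraries, with a median SD of 58.6 bp in constant distal and 62.5 bp in constant gene-end regions.

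**Figure D1:**
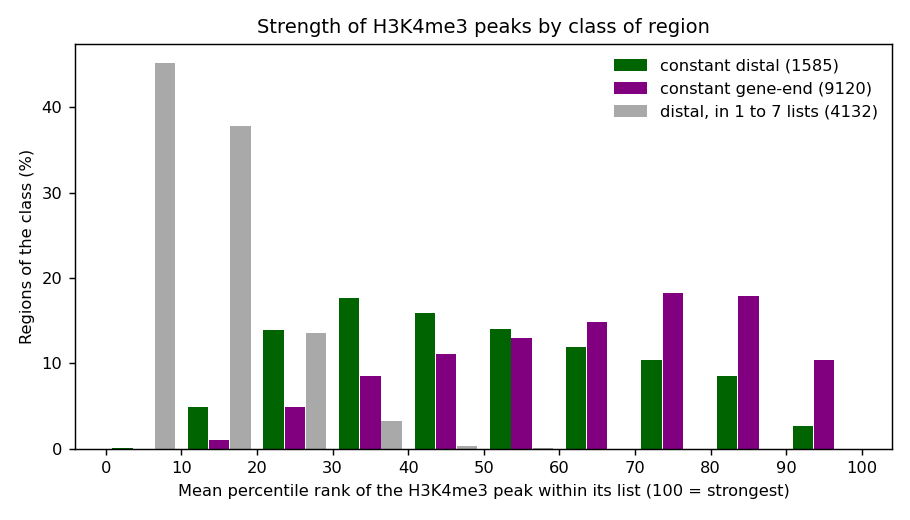
Percentage of regions (vertical axis) in each bin of 10 of the mean percentile rank of their H3K4me3 peaks (horizontal axis, 100 for the strongest), with bars for the 1585 constant distal, 9120 constant gene-end and 4132 inconstant distal regions. Constant distal regions peak between ranks 30 and 40 (17.6%) and spread up to the top bin (2.71%), while 45.1% of inconstant distal regions lie under rank 10.

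The median length under H3K4me3 differed between conditions although presence did not. It was 1541 and 1523 bp in the CBP libraries at 60 h, 1501 and 1460 bp in the WT libraries at 60 h, 1020 and 1019 bp in the CBP libraries at 0 h, and 1249 and 1283 bp in the WT libraries at 0 h. Both 60 h groups lay above both 0 h groups, and at 0 h the CBP libraries lay below the WT libraries. Within a region the longest of the 8 lengths was a median of 1.84 times the shortest. Constant gene-end regions moved in the same order, with 1964 and 1952 bp in CBP and 1913 and 1861 bp in WT at 60 h, and 1362 and 1383 bp in CBP and 1620.5 and 1630 bp in WT at 0 h. The whole lists moved as well, since H3K4me3 covered 27.6 and 27.5 Mb in CBP and 27.4 and 26.5 Mb in WT at 60 h, against 17.3 and 17.4 Mb in CBP and 21.8 and 22.1 Mb in WT at 0 h. The part of list size in these lengths was not tested.

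Regions just inside and just outside the thresholds were as follows. The members nearest to a gene end were chr9:92274765-92276584 (Sscrofa11.1), 2501 bp from an end of IGF2BP3 with a mean of 1364 bp of H3K4me3, and chr4:100441409-100444255, 2521 bp from LOC100519022 with a mean of 2123 bp. Just left out were chr14:131287500-131289249, 2499 bp from FGFR2 with 957 bp, and chr1:216106912-216108657, 2480 bp from RANBP6 with 1452 bp. The widest members were chr11:14546409-14551336 in LHFP (4928 bp) and chr1:14864082-14868994 in ZBTB2 (4913 bp), and the narrowest regions left out for width were in CALD1 (5013 bp) and C10H9orf3 (5015 bp).

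Most regions lay inside genes. The span of a protein-coding gene held 998 of the 1585 (63.0%), and 587 lay outside every such span. The median distance to the nearest gene end was 13897 bp, with 632 regions within 10 kb, 836 over 10 and up to 100 kb away, and 117 over 100 kb away. In all, 923 genes held a region, 84 held at least 2, and the most was 3, in CAPG, CHD9, FRMD4A, HSPA1L, PDE4D, RERE, SLC25A25 and TACC1. The annotation table gave 1 start and 1 end per gene and no strand, so a second promoter inside a gene and a 5' end that the model lacks were both counted as distal. Each region was then placed in 1 class. Where the nearest end of a non-coding record lay within 1 kb, the type of that record set the class. It was a transfer RNA (tRNA) gene at 80 regions, a long non-coding RNA (lncRNA) record at 196 and another non-coding record at 26. Of the rest, 932 lay inside a protein-coding gene and 351 between genes.

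The strongest distal H3K4me3 peaks ranked with the strongest of the whole lists. The region chr6:48604029-48606696, inside the kinase gene AKT2 and 13.8 kb from its nearer end, had the highest mean rank, 99.8. It was followed by chr7:21980479-21982608 at the lncRNA record LOC110261676, 14.5 kb from ZSCAN16 (99.4), chr2:7922459-7926271 inside STIP1, which encodes a co-chaperone of heat shock proteins (99.0), and chr4:98054444-98057353 inside the lipid kinase gene PIP5K1A (98.9). Of the 43 regions with a rank of at least 90, 30 lay inside a protein-coding gene and 40 overlapped H3K27ac in at least 1 library. Of the 78 with a rank under 20, 32 lay inside a gene and 37 overlapped H3K27ac at least once.

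H3K27ac, the measure that was independent of the choice, was listed over 997 of the 1585 regions in at least 1 library (62.9%) and over 588 in none. It was present in all 8 libraries at 147 regions (9.27%). The corresponding shares were 72.2% and 6.71% of constant gene-end regions, and 51.8% and 8.25% of inconstant distal regions. Constant distal regions acetylated in more libraries were also longer. Those with no H3K27ac had a median width of 1425 bp and a median H3K4me3 rank of 39.1, and those with H3K27ac in all 8 libraries a median width of 2957 bp and a median rank of 54.1. The share inside protein-coding genes was 53.1% in the first set and 72.8% in the second, and the median distance to a gene end was 12638.5 bp and 26549 bp. Width by itself raises the chance of touching a peak, and its part in this relation was not tested.

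**Figure D2:**
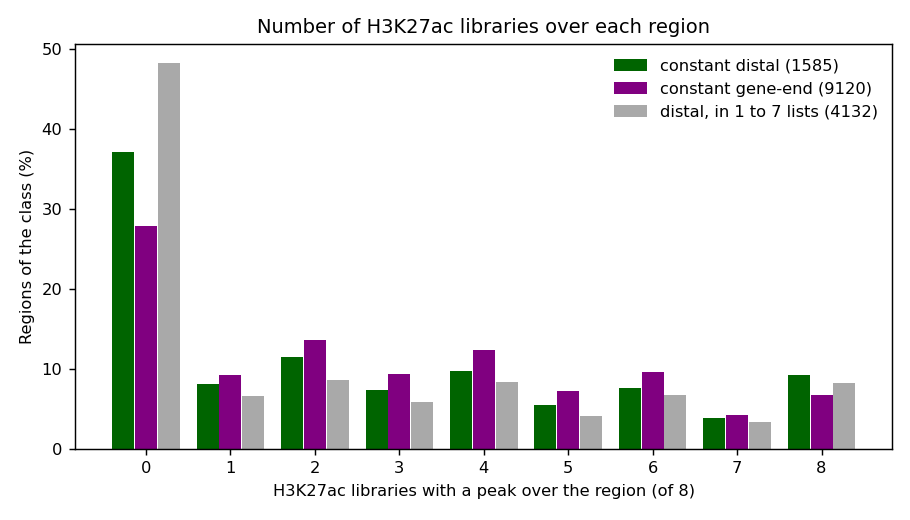
Percentage of regions (vertical axis) by the number of H3K27ac libraries, of 8, with a peak over the region (horizontal axis), with bars for constant distal, constant gene-end and inconstant distal regions. No H3K27ac library covered 37.1% of constant distal, 27.8% of constant gene-end and 48.2% of inconstant distal regions, and all 8 covered 9.27%, 6.71% and 8.25%.

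Averaged over the 8 libraries, 33.3% of constant distal regions overlapped an H3K27ac peak, against 36.3% of constant gene-end regions. The difference of -3.00 percentage points was lower in 6 of 8 libraries, with a two-sided exact sign-flip permutation p of 0.0547, which became 0.0469 without CBP at 0 h replicate 1 (-3.46 points) or replicate 2 (-3.69 points). Against inconstant distal regions (28.1%) the difference was 5.15 points, higher in 6 of 8 libraries (exact sign-flip permutation p = 0.0312), and the p was 0.0625 without any 1 of the 6 other libraries, those of WT at both times and CBP at 60 h. This comparison was chosen after seeing the data. The sets differ in median width (1806 and 536 bp), and with each region widened by 1 kb on each side the difference was 2.19 points (exact p = 0.3047). Both CBP libraries at 0 h stood apart in these comparisons, since there the share in constant distal regions was above that in gene-end regions and below that in inconstant ones. Both differences depended on the definition of overlap. When H3K27ac had to cover at least 50% of the region, 10.4% of constant distal regions qualified, against 6.31% of gene-end regions (exact p = 0.0078) and 23.4% of inconstant distal regions (exact p = 0.0078), so both directions turned. The gap to inconstant distal regions no longer passed the test, with a difference of 3.02 points (exact p = 0.1094), when each library kept the same number of peaks.

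**Figure D3:**
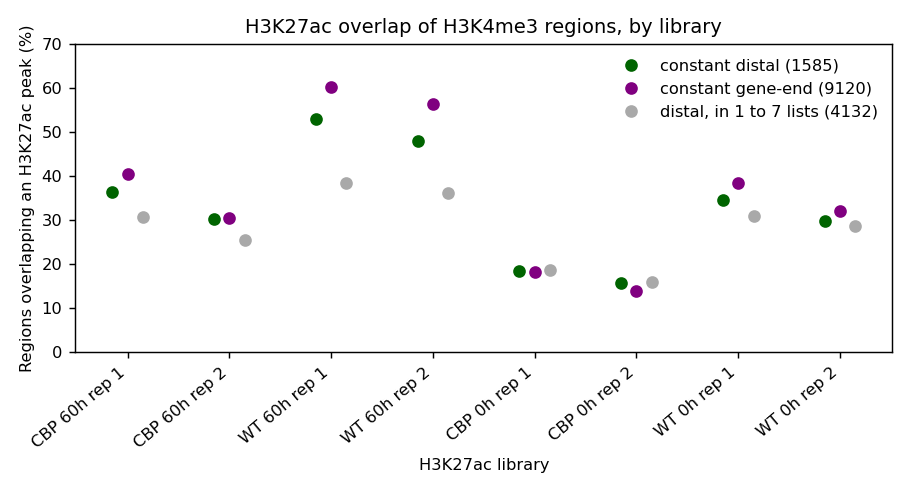
Percentage of regions that overlap an H3K27ac peak (vertical axis) in each of the 8 H3K27ac libraries (horizontal axis), 1 point per library and class of region. Constant distal regions range from 15.7% in CBP at 0 h replicate 2 to 52.9% in WT at 60 h replicate 1, and lie below constant gene-end regions in all 4 libraries at 60 h.

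Where H3K27ac was present, its summit lay closer to the H3K4me3 summit at 60 h. The H3K4me3 summit of a region was its median position over the 8 H3K4me3 libraries, so only the H3K27ac summit varied by library. The regions compared also differed, from 249 in CBP at 0 h replicate 2 to 839 in WT at 60 h replicate 1. The median distance between the H3K27ac and the H3K4me3 summit was 121 and 131 bp in CBP and 89.5 and 104 bp in WT at 60 h, against 231 and 298 bp in CBP and 249 and 301 bp in WT at 0 h. The 60 h libraries did not overlap the 0 h libraries within either group. Over constant distal regions with H3K27ac, 60.4 to 66.7% of summit pairs lay within 250 bp at 60 h and 46.2 to 52.2% at 0 h.

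Fewer constant distal regions overlapped H3K27ac in CBP libraries than in WT libraries at both times, and more did so at 60 h than at 0 h. The numbers were 575 and 480 of 1585 in CBP and 839 and 762 in WT at 60 h, and 293 and 249 in CBP and 549 and 472 in WT at 0 h. At 60 h the share was 33.3% ± 4.24 in CBP and 50.5% ± 3.44 in WT, and at 0 h it was 17.1% ± 1.96 in CBP and 32.2% ± 3.44 in WT (SD, n = 2 libraries each). The differences were -17.2 percentage points for CBP minus WT at 60 h, -15.1 points for CBP minus WT at 0 h, and 18.3 points for 60 h minus 0 h in WT. In each comparison the groups did not overlap, and the two-sided exact permutation p was 0.3333, the smallest that 2 libraries against 2 can give. The number of H3K27ac peaks in the whole list moved the same way, with 17019 and 13750 in CBP and 23437 and 21694 in WT at 60 h, and 10972 and 8969 in CBP and 19531 and 17338 in WT at 0 h. With the same number of strongest peaks kept in every list, the difference was -5.65 points at 60 h (25.3% in CBP, 31.0% in WT), -1.39 points at 0 h (16.1% in CBP, 17.5% in WT) and 13.5 points for 60 h against 0 h in WT. The deficit in CBP at 0 h was thus much smaller once list sizes were equal.

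Counting regions with H3K27ac in both libraries of one group and neither of the other gave the same picture. At 60 h, 19 regions had H3K27ac in both CBP and neither WT library (background over all 19622 merged regions 1.34%) and 205 in both WT and neither CBP library (background 12.6%), which is 28.1% of the 729 regions acetylated in both WT libraries, against 33.3% of such gene-end regions. At 0 h the counts were 18 in CBP alone (background 0.841%) and 194 in WT alone (background 11.3%), which is 44.4% of 437, against 51.1% of such gene-end regions. Among inconstant distal regions acetylated in both WT libraries, the shares were lower, 23.2% at 60 h and 38.0% at 0 h. From 0 h to 60 h, H3K27ac appeared at 214 regions in CBP (background 12.6%) and at 268 in WT (background 15.4%), and disappeared at 37 in CBP (background 2.57%) and 40 in WT (background 2.97%). Comparisons that share libraries are given side by side only.

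The length under H3K27ac was compared with limma on log2 of the base pairs plus 200 bp, over the 9619 merged regions that reached 100 bp in 2 or more libraries. Of the 1585 constant distal regions 867 passed this filter, so the counts below describe those 867. Fold changes on this scale are compressed for short lengths, and where a group is listed at 0 the lengths are given in place of a fold. A length cannot exceed the width of its region, so a difference between libraries that are covered from end to end cannot show. A group whose libraries are both at 0 adds no spread, so the p-values of such regions rest on the moderated variance. A region listed in a single group and at 0 elsewhere passed the filter through that group alone. Such regions are within the counts below and were not counted separately, so these counts depend in part on the filter. Where such regions are named, their lengths are given with no p-value.

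In CBP against WT cells at 60 h, 24 of the 867 were higher (background 3.10%) and 314 lower (background 36.2%) at an adjusted p below 0.05 (338 in all, background 39.3%), and the median log2 difference was -0.83, against -0.80 over all regions tested. A share of 2.77% higher and 36.2% lower was close to the background. Without WT at 60 h replicate 1 or without replicate 2 the count was 144 in place of 338. Such a fit leaves 1 library in that group, assumes that it varies like the other groups, and tests 729 or 753 of the constant distal regions in place of 867. After quantile scaling, which makes the distribution of lengths equal in all libraries, 106 were higher and 121 lower. Among the largest losses, at chr3:59351444-59355031, inside CAPG, which encodes an actin-capping protein, H3K27ac covered 9 and 0 bp in CBP and 3568 and 3409 bp in WT at 60 h, and 258 and 491 bp in CBP and 1677 and 1025 bp in WT at 0 h. CBP libraries were lower at both times (60 h: log2 difference -4.17 ± 0.29 SE, limma adjusted p = 0.0002797; 0 h: -1.43 ± 0.29, limma adjusted p = 0.02291). H3K4me3 there was also short in CBP at 60 h, with 517 and 298 bp against 3036 and 2960 bp in WT.

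The region chr14:16470080-16473056 lies 7.10 kb from HAND2, a basic helix-loop-helix factor of heart and limb development. H3K27ac was listed at 0 in both CBP libraries at 60 h and covered 2977 and 2889 bp in WT at 60 h. It was at 0 in all 4 libraries at 0 h. Thus 2 of the 8 libraries, both WT at 60 h, carried acetylation over nearly the whole region. H3K4me3 covered 866 and 475 bp in CBP and 2974 and 2711 bp in WT at 60 h, and 488 and 643 bp in CBP and 2352 and 2052 bp in WT at 0 h. At chr13:189126243-189130469, 18.2 kb from the mitochondrial ribosome gene MRPL39 and 8.35 kb from the microRNA gene MIR155, H3K27ac was listed at 0 in all 4 CBP libraries. In WT it covered 3417 and 2507 bp at 60 h and 1538 and 1249 bp at 0 h (limma adjusted p = 4.413e-05 at 60 h and 0.0002534 at 0 h).

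Gains in CBP at 60 h were few. A region shared by the overlapping genes FILIP1L and CMSS1, chr13:159134082-159138398, had 1400 and 1196 bp of H3K27ac in CBP at 60 h. It was listed at 0 in the other 6 libraries. The same held at chr6:12665417-12669416, at a record named ZNRF1, a ubiquitin ligase gene. It had 1592 and 853 bp in CBP at 60 h and 0 elsewhere. Inside PDE4B, which encodes a phosphodiesterase that degrades cyclic AMP, chr6:146209482-146211566 had 1024 bp in both CBP libraries and 0 in both WT libraries at 60 h, but 449 and 0 bp in CBP and 809 and 917 bp in WT at 0 h. Its call at 60 h (limma adjusted p = 0.02078) was lost without any 1 of the 4 libraries at 60 h, with adjusted p values between 0.06672 and 0.1269.

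In CBP against WT cells at 0 h, 22 of the 867 were higher (background 1.56%) and 201 lower (background 23.5%), 223 in all (background 25.1%), with a median log2 difference of -0.31, against -0.26 over all regions tested. After quantile scaling 69 were higher and 165 lower, and the median was 0.10. Of the 223 called regions, 171 had a group listed at 0, which could be any of the 4 conditions. So did 289 of the 338 called for CBP against WT at 60 h. For time in WT it was 382 of the 461 called, and for the difference of the CBP effects 284 of the 320. Among the largest losses, at chr1:114748042-114752353, inside TCF12, which encodes an E protein that pairs with the myogenic factors, H3K27ac was listed at 0 in both CBP libraries and covered 2525 and 2439 bp in WT at 0 h, while at 60 h it covered 2974 and 3208 bp in CBP and 4312 and 4312 bp in WT. CBP was lower at both times (limma adjusted p = 3.557e-06 at 0 h; log2 difference -0.46 ± 0.05 SE, limma adjusted p = 0.001597, at 60 h). Both WT libraries at 60 h were covered over the whole width of 4312 bp, which limits the 60 h difference.

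Other losses at 0 h were smaller at 60 h. At chr1:190685869-190688079, inside SNAPC1, a subunit of the complex that starts small nuclear RNA transcription, H3K27ac was listed at 0 in both CBP libraries and covered 1763 and 1892 bp in WT at 0 h (limma adjusted p = 1.81e-05), against 1701 and 1462 bp in CBP and 1791 and 1719 bp in WT at 60 h. The 60 h libraries differed by -0.14 ± 0.08 SE on the log2 scale (limma adjusted p = 0.2636). At chr9:45914434-45917412, inside PHLDB1, it was listed at 0 in both CBP libraries and covered 1701 and 1803 bp in WT at 0 h (limma adjusted p = 3.557e-06), and at 60 h it covered 1884 and 1913 bp in CBP and 2621 and 2713 bp in WT (log2 difference -0.45 ± 0.05 SE, limma adjusted p = 0.001499). Higher in CBP at 0 h was chr12:46811244-46814476, inside ABR, with 992 and 908 bp in CBP and 0 in both WT libraries (limma adjusted p = 0.0001014), although at 60 h CBP was lower there, with 1229 and 1489 bp against 2112 and 1872 bp in WT (log2 difference -0.49 ± 0.11 SE, limma adjusted p = 0.022). Also higher was chr1:103750375-103752804, inside MBD2, a reader of methylated DNA, with 698 and 686 bp in CBP and 0 in WT at 0 h (limma adjusted p = 0.0006262) and 870 and 1031 bp in CBP and 327 and 499 bp in WT at 60 h (log2 difference 0.92 ± 0.16 SE, limma adjusted p = 0.009331). At chr13:24736391-24737746, inside LOC100623639, all 4 CBP libraries carried H3K27ac (609 and 705 bp at 60 h, 594 and 544 bp at 0 h) and all 4 WT libraries were at 0 (limma adjusted p = 2.452e-05 at 60 h and 7.938e-05 at 0 h).

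From 0 h to 60 h in WT cells, 416 of the 867 rose (background 45.5%) and 45 fell (background 6.50%), 461 in all (background 52.0%), with a median log2 change of 1.06, against 1.0 over all regions tested. Without WT at 60 h replicate 1 the total of 461 became 223, and without WT at 60 h replicate 2 it became 229. After quantile scaling 173 rose and 155 fell. The region with the largest fitted rise was chr17:31917126-31921552, inside CDC25B, a phosphatase that activates cyclin-dependent kinases. It had 3831 and 3667 bp in WT at 60 h and 0 in both WT libraries at 0 h (limma adjusted p = 0.002459), with 3511 and 1981 bp in CBP at 60 h and 0 and 351 bp in CBP at 0 h. The CBP libraries too were longer at 60 h there. The same was seen at chr5:16112384-16117033, inside LIMA1, which encodes an actin-binding protein, with 2706 and 2868 bp in CBP and 3258 and 2613 bp in WT at 60 h, and 0 in all 4 libraries at 0 h (WT 60 h against 0 h, limma adjusted p = 6.908e-06).

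Regions that lost H3K27ac with differentiation included chr14:28246646-28249525 at a gene for phenylalanine tRNA, TRNAF-GAA, 4.21 kb from DHX37. It was listed only in WT at 0 h, with 1457 and 1032 bp, and was at 0 in the other 6 libraries. At chr3:67680002-67682390, 28.5 kb from EVA1A, WT had 0 in both libraries at 60 h and 1457 and 921 bp at 0 h (limma adjusted p = 0.001947), while CBP kept 1278 and 649 bp at 60 h and 481 and 407 bp at 0 h. Inside CREB5, which encodes a bZIP transcription factor, chr18:43974433-43976326 had 301 and 0 bp in WT at 60 h and 1748 and 1586 bp in WT at 0 h (log2 change -2.56 ± 0.78 SE, limma adjusted p = 0.04815). That call did not hold without any 1 of the 6 libraries of WT at 60 h, WT at 0 h and CBP at 0 h, nor with 100 bp added in place of 200 bp (adjusted p between 0.07742 and 0.2006).

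The CBP difference itself differed between the times at 320 of the 867 regions (background 36.2%). It was more positive at 60 h than at 0 h at 121 (background 14.1%) and more negative at 199 (background 22.1%), with a median of -0.31, against -0.22 over all regions tested. After quantile scaling the split was 162 and 110. The majority of more negative differences depended on single libraries: 118 were more positive and 73 more negative without WT at 60 h replicate 1 (191 in all), and 95 and 73 without replicate 2 (168 in all). Inside SLC8A1, which encodes a sodium-calcium exchanger, chr3:99878254-99879900 changed direction. It had 595 and 526 bp in CBP and 0 in both WT libraries at 60 h, and 0 in both CBP libraries and 726 and 758 bp in WT at 0 h (limma adjusted p of the difference 6.114e-06). The opposite pattern, a loss in CBP at 60 h alone, was seen 6.33 kb from FAM229A at chr6:88799341-88802304. H3K27ac there was listed at 0 in CBP and covered 2465 and 2457 bp in WT at 60 h, and covered 620 and 386 bp in CBP and 443 and 403 bp in WT at 0 h (limma adjusted p of the difference 0.0002024).

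**Figure D4:**
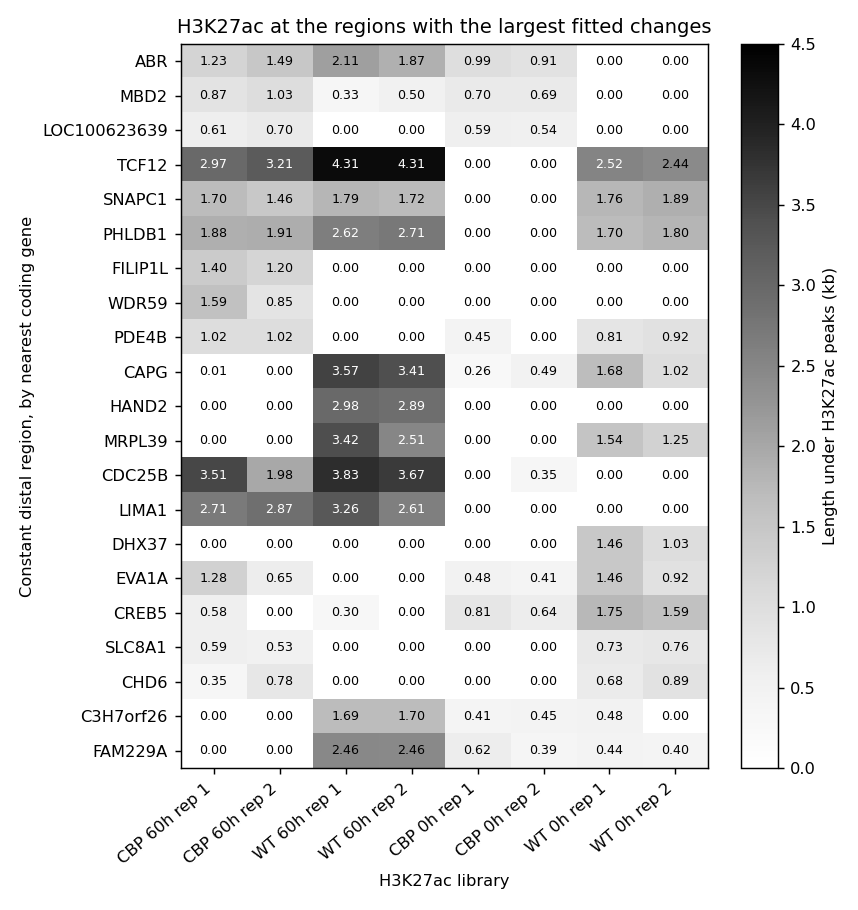
Length under H3K27ac peaks in kb (grey scale and printed values) at the 21 constant distal regions with the largest fitted changes (rows, named by the nearest protein-coding gene) in the 8 H3K27ac libraries (columns). HAND2 is covered in both WT libraries at 60 h and in no other, MRPL39 in the 4 WT libraries only, and LOC100623639 in the 4 CBP libraries only.

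The regions with the longest H3K27ac were acetylated in all 8 libraries. The longest mean H3K27ac was at chr1:104813336-104818204, 94.5 kb from the nearer end of TCF4, an E protein like TCF12, with 4869 and 4869 bp in CBP and 4869 and 4585 bp in WT at 60 h, and 1072 and 508 bp in CBP and 3544 and 3418 bp in WT at 0 h. CBP was lower at 0 h (log2 difference -1.96 ± 0.28 SE, limma adjusted p = 0.0074), while at 60 h 3 of the 4 libraries were covered over the whole width of 4869 bp, so the 60 h values and any difference between the times are limited by that width. A similar order was seen at chr11:9687326-9691451, inside STARD13, with 3545 and 3312 bp in CBP and 4126 and 4126 bp in WT at 60 h, and 1482 and 880 bp in CBP and 3630 and 3745 bp in WT at 0 h. There CBP was lower at 0 h (log2 difference -1.53 ± 0.21 SE, limma adjusted p = 0.006781), and the 60 h difference of -0.25 ± 0.21 did not pass (limma adjusted p = 0.4045), with both WT libraries at 60 h covered over the whole width of 4126 bp.

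The other 3 regions of the 5 longest lay at non-coding records. At chr3:44827458-44831137, 967 bp from the lncRNA record LOC106509733 and 222 kb from any protein-coding gene end, H3K27ac covered 2755 and 3057 bp in CBP and 3680 and 3680 bp in WT at 60 h, and 2863 and 3029 bp in CBP and 3267 and 3326 bp in WT at 0 h. All 8 libraries lay between 2755 and 3680 bp, and the 60 h difference was called (log2 difference -0.32 ± 0.06 SE, limma adjusted p = 0.01132), with both WT libraries at 60 h at the full width. At chr15:66568586-66572853, over the lncRNA record LOC110256932 and 76.5 kb from MARCH7, H3K27ac covered 3318 and 3480 bp in CBP and 4268 and 4201 bp in WT at 60 h, and 1918 and 1575 bp in CBP and 2595 and 2796 bp in WT at 0 h. The microRNA gene MIR199A-1, inside DNM3, lay in chr9:114530385-114534608, with 3384 and 2913 bp in CBP and 3837 and 3551 bp in WT at 60 h, and 2239 and 2160 bp in CBP and 2717 and 2570 bp in WT at 0 h. It rose with time in WT (log2 change 0.45 ± 0.08 SE, limma adjusted p = 0.01028).

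In 31 of the 1585 regions (1.96%) the mean length under H3K27ac exceeded that under H3K4me3, against 10 of the 9120 gene-end regions (0.110%). The same held in 1422 of the 4132 inconstant distal regions (34.4%), which lack H3K4me3 in some lists. Chosen after their values were seen, the 31 were led by chr1:208187062-208188658 inside NFIB, a nuclear factor I gene, with a mean of 1469 bp of H3K27ac and 777 bp of H3K4me3 at a rank of 11.3. The second was chr5:90560204-90562145, 35923 bp from LOC106510426, with 1534 bp of H3K27ac and 913 bp of H3K4me3.

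At the other end, 588 regions had H3K4me3 in all 8 libraries and H3K27ac in none. Their longest H3K4me3 was at chr2:136777214-136781378, inside JADE2, a PHD finger gene, with 3911 and 3868 bp in CBP and 4031 and 4058 bp in WT at 60 h, and 3145 and 3536 bp in CBP and 3540 and 3550 bp in WT at 0 h. A steady length in all 8 libraries was also seen 13.1 kb from SKIDA1 at chr10:53351488-53355172, with 3426 and 3685 bp in CBP and 3246 and 3217 bp in WT at 60 h, and 3042 and 2831 bp in CBP and 3347 and 2944 bp in WT at 0 h. H3K27me3 was listed there in 3 libraries, with 646 and 338 bp in WT at 60 h and 443 and 0 bp in CBP at 0 h. By contrast the region inside LFNG, which encodes a glycosyltransferase that modifies Notch, chr3:1811099-1815931, changed in length with time. It had 4569 and 4807 bp in CBP and 4821 and 4763 bp in WT at 60 h, and 2162 and 2149 bp in CBP and 2127 and 2139 bp in WT at 0 h. The other 2 of the 5 longest lay at tRNA genes.

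Transfer RNA genes are transcribed by RNA polymerase III from promoters inside the gene. They were the nearest non-coding record, within 1 kb, at 80 of the 1585 regions (5.05%). The table held 448 tRNA genes on placed chromosomes, and 129 of them (28.8%) had an end within 1 kb of a constant distal region, against 67 (14.96%) within 1 kb of a constant gene-end region and 48 (10.7%) of an inconstant distal one. For lncRNA records the shares were 3.98% (216 of 5425), 13.8% and 3.50%, and for microRNA genes 5.21% (16 of 307) lay at a constant distal region. The 80 tRNA regions held 1 tRNA gene in 44 cases and at least 2 in 36, with at most 5. Chromosome 7 carried 43 of the 80, of which 36 fell between 20 and 23 Mb, where 117 tRNA genes are annotated, and chromosome 4 carried 11. Neighbouring tRNA regions share a genome neighbourhood, and near-identical tRNA copies make the placing of reads uncertain there.

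The tRNA regions ranked like the others in H3K4me3 and were less often listed with H3K27ac, a difference that was not tested. Their median H3K4me3 rank was 51.7, close to the 51.6 of lncRNA regions and 51.8 of regions inside genes and above the 37.8 of regions between genes. H3K27ac was listed over 27 of the 80 in at least 1 library (33.8%) and over 1 in all 8, whereas 61.2% of lncRNA regions, 68.8% of regions inside genes and 56.1% of regions between genes had it at least once. Per library the share was 8.75% and 5.00% in CBP and 21.25% and 22.5% in WT at 60 h, and 5.00% and 5.00% in CBP and 21.25% and 18.8% in WT at 0 h. CBP libraries were below WT libraries at both times, but between the times the WT share hardly moved (21.9% ± 0.884 at 60 h and 20% ± 1.77 at 0 h, SD, n = 2 each). In the regions inside genes the WT share was 56.8% ± 3.57 at 60 h and 35.6% ± 3.34 at 0 h. Of the 36 tRNA regions on chromosome 7 between 20 and 23 Mb, few had H3K27ac. They were chr7:21016666-21018303, chr7:21482239-21485649 and chr7:21639320-21641787, in 1 library each. The low share of tRNA regions thus rests largely on that locus, and most tRNA regions with H3K27ac lay elsewhere. Of the 80, 19 passed the filter, of which 7 rose and 4 fell from 0 h to 60 h in WT (background 45.5% and 6.50%), 9 were lower in CBP at 0 h (background 23.5%) and 10 at 60 h (background 36.2%), and none was higher in CBP.

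**Figure D5:**
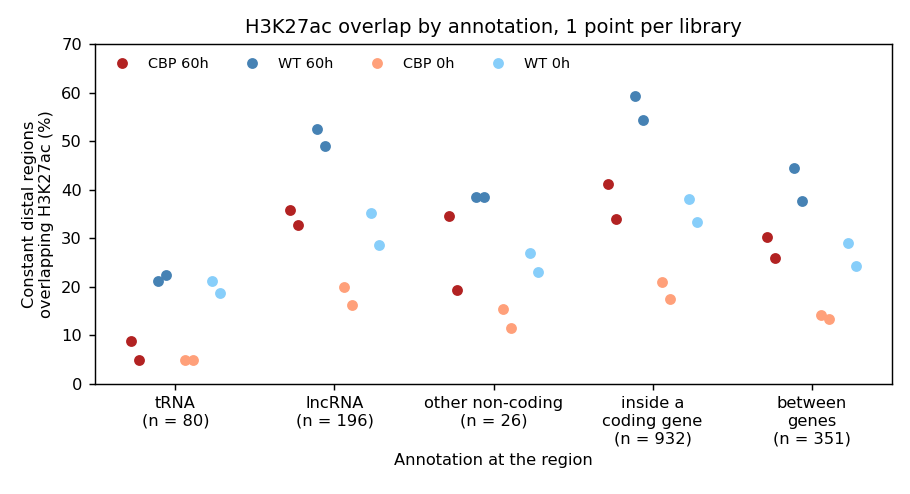
Percentage of constant distal regions that overlap an H3K27ac peak (vertical axis) by annotation at the region (horizontal axis, with the number of regions), 1 point per library, coloured by condition. The tRNA regions lie between 5.00 and 22.5% in all 8 libraries, and the WT libraries at 60 h reach 54.3 and 59.3% in regions inside protein-coding genes.

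The longest tRNA regions without H3K27ac were chr4:88963792-88967292, at a gene for aspartate tRNA (TRNAD-GUC) 3.30 kb from the heat shock gene HSPA6, and chr7:20919192-20923356, at a gene for glutamine tRNA (TRNAQ-UUG). The first had 3348 and 3157 bp of H3K4me3 in CBP and 3496 and 3501 bp in WT at 60 h, and 2608 and 2555 bp in CBP and 3128 and 3310 bp in WT at 0 h, at a mean rank of 90.9. The second had 3362 and 2860 bp in CBP and 3910 and 2888 bp in WT at 60 h, and 2542 and 3294 bp in CBP and 2836 and 3141 bp in WT at 0 h, at a rank of 47.3. Both kept H3K4me3 above 2.5 kb in every library with no H3K27ac base in any.

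Some constant distal regions sat at records that carry a coding gene's symbol but are typed as non-coding. There were 25 such regions at lncRNA-typed records with 23 symbols, among them EIF3B and EIF4B, which encode translation initiation factors, HNRNPU, an RNA-binding protein of the nucleus, SNRPB, a core protein of spliceosomal particles, POMP, a proteasome maturation protein, and TIMM10, a mitochondrial import chaperone. Their median H3K4me3 rank was 64.7, between 18.4 (MARC2) and 98.1 (EIF3B), near the 67.7 of constant gene-end regions and above the 48.0 of all constant distal regions. Of the 25, 14 overlapped H3K27ac in at least 1 library and 2, EIF3B and SEM1, in all 8. The EIF3B region, chr3:1644584-1647762, had 1693 and 1171 bp of H3K27ac in CBP and 2182 and 1928 bp in WT at 60 h, and 619 and 480 bp in CBP and 1076 and 939 bp in WT at 0 h. WT lay above CBP at each time, but neither difference passed the test (log2 differences -0.48 ± 0.20 SE at 60 h and -0.69 ± 0.20 at 0 h, limma adjusted p = 0.1216 and 0.0687). These records were counted as distal because the table does not type them as protein-coding.

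At other non-coding records the strongest regions were chr7:21980479-21982608 and chr11:13764846-13767121. The first, over LOC110261676, had 461 and 492 bp of H3K27ac in CBP and 557 and 531 bp in WT at 60 h, and 698 and 592 bp in CBP and 841 and 768 bp in WT at 0 h, and so was among the few that fell with time in WT (log2 change -0.43 ± 0.09 SE, limma adjusted p = 0.01233). The second, over LOC110255748 inside UFM1, which encodes a ubiquitin-like modifier, had 903 and 1113 bp in CBP and 1315 and 1126 bp in WT at 60 h, and 740 and 542 bp in CBP and 943 and 1162 bp in WT at 0 h, with no contrast called. The other 2 of the 5 were acetylated mainly in WT at 60 h. Over LOC100522281, chr14:40943029-40945124 had 0 in both CBP libraries and 581 and 433 bp in WT at 60 h. It had 0 in all 4 libraries at 0 h. Over LOC102165528 inside ZNF623, chr4:938955-942968 had 0 in CBP and 295 and 312 bp in WT at 60 h, and 0 and 259 bp in CBP and 0 in WT at 0 h (limma adjusted p = 0.05483 at 60 h).

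At 11 regions the nearest non-coding record, within 1 kb, was a microRNA gene, and 8 of them overlapped H3K27ac in at least 1 library. MIRLET7I, of the let-7 family, MIR199A-1 and MIR2366-1 had it in all 8 libraries, MIR193A in 5, MIR17, of the cluster named after it, and MIR339-1 in 3, and MIR130A and MIR9796 in 2. MIR148A, MIR9811 and MIR10A, which lies in the HOXB cluster, had none. Their H3K4me3 ranks ran from 41.1 (MIR10A) to 90.5 (MIR130A). Of the 8 that passed the filter, 5 rose and 1 fell from 0 h to 60 h in WT (background 45.5% and 6.50%), and 1 was lower in CBP at 0 h (background 23.5%) and 1 at 60 h (background 36.2%).

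H3K27me3 was rare over these regions, at 84 of 1585 in at least 1 library and at 1 in all 8. Of the 9120 gene-end regions, 228 had it at least once, a smaller share. The numbers of constant distal regions were 24 and 21 in CBP and 31 and 21 in WT at 60 h. At 0 h they were 66 and 48 in CBP and 3 and 15 in WT. In gene-end regions the mean share was 0.84% in CBP and 0.73% in WT at 60 h. At 0 h it was 1.62% in CBP and 0.30% in WT there. Inconstant distal regions had higher shares, with 2.99% in CBP and 2.52% in WT at 60 h. At 0 h they had 6.39% in CBP and 1.08% in WT. CBP minus WT was 3.03 percentage points at 0 h (3.60% and 0.568%) and -0.221 points at 60 h (1.42% and 1.64%), with two-sided exact permutation p values of 0.3333 and 1. The 60 h difference was 0.0946 points without WT at 60 h replicate 1. The H3K27me3 lists differed more than those of any other mark, with 13258 and 12336 peaks in CBP and 8922 and 6174 in WT at 60 h, and 19317 and 14723 in CBP and 1338 and 2660 in WT at 0 h, and with lists of equal number the differences were 0.410 points at 0 h and -0.442 points at 60 h. Few H3K27me3 peaks had a -log10 q of at least 5. At 60 h the shares were 0.181 and 0.146% in CBP and 0.258 and 0.0648% in WT. At 0 h they were 12.6 and 8.37% in CBP and 0 and 1.05% in WT. In the H3K4me3 lists they were 84.6 to 91.3%. Most peaks of every H3K27me3 list were thus weak by this limit. Both H3K27ac and H3K27me3 were listed, in some library each, over 24 regions.

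The 5 regions with most H3K27me3, 2 of them at homeobox genes, had no H3K27ac in any library. Near RAX, a homeobox gene of eye development, chr1:161686242-161687304 was the 1 region with H3K27me3 in all 8 libraries, with 447 and 523 bp in CBP and 1014 and 527 bp in WT at 60 h, and 1063 and 1063 bp in CBP and 566 and 609 bp in WT at 0 h. H3K4me3 there was shorter in CBP at both times, with 336 and 338 bp in CBP and 720 and 590 bp in WT at 60 h, and 283 and 285 bp in CBP and 1039 and 1063 bp in WT at 0 h. Inside LHX9, a LIM homeobox gene, chr10:20747750-20750039 had 289 and 588 bp of H3K27me3 in CBP and 421 and 548 bp in WT at 60 h, and 2290 and 1768 bp in CBP and 0 and 809 bp in WT at 0 h. The 3 others, 5.20 kb from LOC100521350, 41.2 kb from TMEM33 and inside PRSS16, likewise had H3K27me3 in 7 libraries.

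Of the gene lists examined, that of myogenic factors and their partners is given first. A constant distal region lay in or nearest to 8 of the 28 genes found (among them EYA1, EYA2, EYA4, MEF2A, MEF2D, TCF12 and TCF4), against 1532 of 19533 genes in all (7.84%), and all 10 regions overlapped H3K27ac in at least 1 library, that inside EYA2 in 1 library only (416 bp in WT at 60 h replicate 2). The same held for the 3 regions of the matrix and fibroblast list and the 1 region of the contractile list, against 62.9% of all 1585. Long genes catch more regions, and the part of gene length was not tested. Of the 9 that passed the filter, 6 were lower in CBP at 0 h (background 23.5%), 3 were lower in CBP at 60 h (background 36.2%), 4 rose from 0 h to 60 h in WT (background 45.5%), and none was called in the opposite direction of these 3. The medians of the 9 for these 3 comparisons were -1.96, -0.46 and 0.75 on the log2 scale, against -0.31, -0.83 and 1.06 over the 867. The CBP difference was more positive at 60 h than at 0 h at 4 (background 14.1%). These were in TCF12, TCF4 and EYA4 and at chr4:64158619-64162002 in EYA1. At all 4, H3K27ac in WT at 60 h covered the whole width or nearly so, which limits the 60 h difference. The part of that limit in the 4 calls was not tested. MEF2A, a MADS-box partner of the myogenic factors, had its region 53.1 kb away at chr1:138340322-138345191, with 391 and 415 bp of H3K27ac in CBP and 2291 and 2591 bp in WT at 60 h, and 0 in CBP and 889 and 629 bp in WT at 0 h. CBP was lower at both times (log2 difference -2.13 ± 0.15 SE, limma adjusted p = 0.0002994, at 60 h; adjusted p = 0.0004389 at 0 h).

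EYA4, a transcriptional cofactor of homeobox proteins, held chr1:30530074-30533725, with 1623 and 1859 bp in CBP and 3471 and 3371 bp in WT at 60 h, and 0 in CBP and 741 and 506 bp in WT at 0 h. Again CBP was lower at both times (log2 difference -0.90 ± 0.15 SE, limma adjusted p = 0.009241, at 60 h; adjusted p = 0.0007245 at 0 h), and WT rose with time by 2.15 ± 0.15 SE (adjusted p = 0.0002663). EYA1 held 2 neighbouring regions, 166 and 169.9 kb inside the gene, and that at chr4:64158619-64162002 was lower in CBP at 0 h (1213 and 787 bp in CBP, 2190 and 2415 bp in WT, log2 difference -1.08 ± 0.18 SE, limma adjusted p = 0.01174). The other, chr4:64153680-64158160, did not pass at 0 h, with 621 and 0 bp in CBP and 1886 and 2886 bp in WT (limma adjusted p = 0.05585).

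In the satellite cell and progenitor list, regions lay at 5 of 29 genes (LBX1, MEOX1, NOTCH2, PAX3 and SDC3), and of the 5 that inside NOTCH2, a receptor that keeps satellite cells quiescent, overlapped H3K27ac, in all 8 libraries. These regions were short, with a median of 818.5 bp of H3K4me3, against 3008 bp in the myogenic list, and the difference between the lists was not tested. At chr4:100981068-100984406 it had 2680 and 3293 bp in CBP and 2728 and 1818 bp in WT at 60 h, and 760 and 723 bp in CBP and 935 and 517 bp in WT at 0 h, and it rose with time in WT (log2 change 1.43 ± 0.30 SE, limma adjusted p = 0.01469). The region 6.74 kb from PAX3, a paired-box factor of muscle progenitors, chr15:124199782-124200769, instead carried H3K27me3, with 675 and 988 bp in CBP and 622 and 375 bp in WT at 60 h, and 988 and 0 bp in CBP and 0 in WT at 0 h. Its H3K4me3 was steady at 668 to 963 bp in all 8 libraries.

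Developmental transcription factors had 21 regions at 14 of 52 genes, of which 15 overlapped H3K27ac. Of the 14 that passed the filter, 9 rose and none fell from 0 h to 60 h in WT (background 45.5% and 6.50%), 2 were lower in CBP at 0 h (background 23.5%) and 3 at 60 h (background 36.2%), and none was higher. Beside NR2F1, a nuclear receptor, chr2:100442069-100444931 had 0 in both CBP libraries and 967 and 358 bp in WT at 60 h. It had 0 in all 4 libraries at 0 h. Regions lay at 6 of 26 cell cycle genes, 4 of 44 genes of IGF, TGF-beta and WNT signalling, 3 of 28 matrix and fibroblast genes, 2 of 25 acetyltransferase, deacetylase and bromodomain genes, and 1 of 45 contractile genes. Inside CCND3, which encodes cyclin D3, chr7:37091183-37095461 rose in WT to 3093 and 3139 bp at 60 h, against 309 and 0 bp at 0 h (log2 change 3.38 ± 0.47 SE, limma adjusted p = 0.003609), with 1880 and 1284 bp in CBP at 60 h and 0 in CBP at 0 h. The contractile region was inside TPM3, a tropomyosin gene, at chr4:95549299-95553987, with 1900 and 617 bp in CBP and 665 and 1300 bp in WT at 60 h and 0 in all 4 libraries at 0 h (WT 60 h against 0 h, limma adjusted p = 0.01458). Inside KAT6B, itself an acetyltransferase gene, chr14:77403594-77406336 was listed at 0 in all 4 CBP libraries and had 1326 and 674 bp in WT at 60 h and 354 and 337 bp in WT at 0 h (limma adjusted p = 0.001561 at 60 h and 0.01812 at 0 h).

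Regions far from genes and near to them had different counts of CBP calls. Of the 74 regions over 100 kb from every gene end that passed the filter, 34 were lower in CBP at 0 h (background 23.5%) and none higher (background 1.56%), with a median log2 difference of -0.77. The 314 within 10 kb had 69 lower and 6 higher, with a median of -0.19. The 479 over 10 and up to 100 kb away had 98 lower and 16 higher, with a median of -0.25. At 60 h the order of the medians was the other way. The far regions had 19 lower, 3 higher and a median of -0.35. The near ones had 126 lower, 4 higher and a median of -1.03 (background 36.2% lower and 3.10% higher). Those between had 169 lower, 17 higher and a median of -0.81. The groups were set after the values were seen, and the difference between them was not tested.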

How the data were processed

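Peak lists of H3K4me3, H3K27ac and H3K27me3 were deposited for 24 of the 32 samples, and the 8 IgG samples are not analysed here. The authors called peaks with MACS2 2.1.0 after Trimmomatic on build Sscrofa11.1, per the submitters' processing notes, and for the aligner, options and control library: not given in the sources used here. Each deposited list holds 1 score per peak, a fold enrichment (a ratio), a -log10 p, a -log10 q and a summit offset by the authors' caller. The deposited -log10 p served for ranks, the deposited fold and score were not used in any test, the deposited -log10 q only for a filter of at least 5, and the deposited summit offset to place summits.

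H3K4me3 peaks of 8 lists were merged at 1 bp overlap, and distances were taken to both ends of 19550 protein-coding genes of the RefSeq gene table, which gives no strand. Left out were 156 constant regions on unplaced sequences and 1113 protein-coding genes with no placed chromosome. The members and gene lists were chosen with earlier results of these data known. Groups came from the titles. H3K27ac base pairs per region were tested with limma 3.58.1 in R 4.3.3 (log2 of bp + 200, at least 100 bp in at least 2 libraries, trend and robust moderation, 4 residual degrees of freedom, Benjamini-Hochberg adjustment over 9619 regions), and shares with exact permutation tests. The limma step was run on simulated data with a common spread and no limit from region width. Groups listed at 0 without spread were not built into them, so that run does not check calls at such regions. Python 3.11.15, numpy 2.4.6, pandas 2.3.3 and matplotlib 3.10.9 were used. Regions named are, by rule, the 5 with the longest H3K27ac, the 5 with the longest H3K4me3 and no H3K27ac, the 3 with the largest called changes each way per comparison, the 5 highest-ranked at non-coding records, the 5 with most H3K27me3, the gene list members, and those nearest the thresholds. Replicate numbers did not pair libraries (correlations of deviations -0.0122 to 0.0311). Alternatives covered scaling, list size, overlap, distance, added length, the replicate block and each library left out. Of the gene list members, some are not reported here.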

Additional observations from a re-analysis of the deposited data

Results flagged for a closer look

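At 320 constant distal regions the CBP difference in H3K27ac length differed between 60 h and 0 h by the interaction term of the limma fit. The largest fitted differences, on the log2(bp + 200) scale, which depend on the added 200 bp because a group is listed at 0, were 4.17 at PDE4B, 4.16 at SLC8A1 and 4.16 at CHD6, and -4.02 at C3H7orf26, -3.97 at HAND2 and -3.89 at FAM229A. The limma adjusted p was 0.01406 at PDE4B, 0.001325 at CHD6 and 0.01783 at C3H7orf26. The C3H7orf26 call was kept under 7 alternatives and lost under 5. H3K27ac there was listed at 0 in both CBP libraries and covered 1692 and 1700 bp in WT at 60 h. At 0 h it covered 411 and 450 bp in CBP and 477 and 0 bp in WT. The PDE4B call was lost without WT at 60 h replicate 1 (adjusted p = 0.06955) or replicate 2 (0.07311) and without WT at 0 h replicate 2 (0.05297). At CHD6, a chromatin remodeller gene 64.9 kb away, H3K27ac covered 348 and 776 bp in CBP and 0 in WT at 60 h, and 0 in CBP and 676 and 886 bp in WT at 0 h.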

How the results depend on the processing

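The number of constant distal regions, 1585, stayed within 1.5 times under every alternative run, from 1244 with the ends of any gene type excluded to 1925 at a distance of 1 kb. The H3K27ac share differences kept their direction: leaving out 1 library gave -17.5 to -12.7 points for CBP minus WT at 0 h, -20.2 to -14.2 at 60 h and 15.9 to 20.7 for time in WT. Against gene-end regions the range was -3.69 to -2.23, and 50% coverage turned the difference to 4.04. Against inconstant distal regions, an alternative set chosen after seeing the data, it was 3.82 to 5.93, 50% coverage gave -13.0, and the call was lost with regions widened by 1 kb (2.19), -log10 q of at least 5 (3.37), equal lists (3.02) and a distance of 5 kb (2.47). For H3K27me3, CBP minus WT at 60 h ran from -0.536 to 0.0946. Called regions at 0 h (223 of 867 tested) were 135 of 644 tested at -log10 q of at least 5 and 124 of 601 tested with equal lists. With equal lists they were 216 of 601 at 60 h (338 of 867) and 293 of 601 for time in WT (461 of 867). Leaving out 1 library gave 168 to 250, 144 to 424, 223 to 493 and, for the difference of CBP effects (320), 168 to 384. Quantile scaling put the median of all regions at 0.10, 0.08, -0.01 and 0.17, in place of -0.26, -0.80, 1.0 and -0.22. The replicate block gave 212, 319, 432 and 297 calls, and the numbers do not pair the libraries. Of 276 alternatives for 24 named changes, 257 kept the call, 19 lost it and none reversed. Counted there were quantile scaling, added length, the replicate block and each library left out. Equal lists, the -log10 q filter and widened regions were not counted for named changes. At HAND2, FILIP1L, ZNRF1 and TRNAF-GAA, leaving out a library of the only listed group took the region below the filter. Those fits are absent from the count and were not counted as lost. The cause was not tested. Unknown depth limits any reading of peaks listed at 0.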
